A study of Mus musculus with 28 samples.

Results

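The 7 genes described here were members of the Hedgehog pathway: the ligand Sonic hedgehog (Shh), the receptor Patched 1 (Ptch1), the signal transducer Smoothened (Smo), the Hedgehog-interacting protein Hhip, and the transcription factors Gli1, Gli2 and Gli3. They were taken by symbol from the deposited table of raw counts, which held 29068 gene symbols. All 7 were found, and all 7 were among the 18107 genes that passed the low-count filter of edgeR and were tested. The libraries were made from total RNA of skin of MLKL+/+ C57BL/6J mice, 8 weeks old and of both sexes, which were given a 6 mm punch excision through the shaved skin of the back. The wound was cut down to the fascia, and the whole wound site with scab and wound margin was collected, so every library held a mixture of cells. There were 28 libraries, 4 at each of day 0, 3, 5, 7, 10, 12 and 14. The day 0 libraries are the controls by their labels, while the methods of the study count the day of injury as day 1. Whether day 0 skin was unwounded or taken at the injury is not given in the sources used here, so a change against day 0 is a change against these control libraries and no more. No other treatment or genotype was used in the libraries analysed.

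Hedgehog ligands are secreted proteins that carry lipids. Without a ligand, Patched 1 keeps Smoothened inactive, and Gli3 and part of Gli2 are cut into repressors at the primary cilium. When a ligand binds Patched 1, Smoothened becomes active and full-length Gli proteins switch on target genes, which include Gli1, Ptch1 and Hhip themselves. Patched 1 and Hhip both bind the ligand and so limit its reach. In skin, Shh is made by the epithelium of growing hair follicles, in the placode and later in the hair matrix, and the cells that respond to it include the dermal papilla and the neighbouring epithelium.

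The Gli proteins bind DNA through a row of zinc fingers that is nearly the same in the 3 genes. To show how close the 3 genes are, the most alike stretch of 90 coding bases that lay within 1 exon in each of them was taken from the GRCm38 transcripts of GENCODE M21. It encodes part of the zinc fingers. The stretch is at chr10:127335963-127336052 on the minus strand in exon 9 of Gli1, at chr1:118845917-118846006 on the minus strand in exon 10 of Gli2, and at chr13:15713559-15713648 on the plus strand in exon 11 of Gli3. The sequences are written 5′ to 3′ on the coding strand, and capitals mark the positions at which the 3 genes are not all the same.
Gli1: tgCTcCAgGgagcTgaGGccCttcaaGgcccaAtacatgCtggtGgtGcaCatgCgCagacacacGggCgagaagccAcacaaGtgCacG
Gli2: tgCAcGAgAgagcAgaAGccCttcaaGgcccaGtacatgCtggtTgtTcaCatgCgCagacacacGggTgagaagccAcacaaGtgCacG
Gli3: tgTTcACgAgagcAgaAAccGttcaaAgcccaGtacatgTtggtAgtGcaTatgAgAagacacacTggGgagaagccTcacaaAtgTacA
In this stretch Gli1 and Gli2 shared 81 of 90 bases, Gli1 and Gli3 shared 69, and Gli2 and Gli3 shared 71. No stretch of 50 bases was identical between the coding transcripts of any pair of the Gli genes or of the 3 Hedgehog ligand genes. Exons of other annotated genes on the opposite strand overlapped those of Shh, Hhip and Gli1. In Shh, 9530036O11Rik overlapped 15.7% and Gm26894 12.7% of the exon bases. In Gli1, Gm47200 overlapped 6.53% and Arhgap9 1.53%, and in Hhip, Gm27820 overlapped 1.93%. Whether the counting used strand is not given in the sources used here, so reads in these overlaps cannot be told apart. 9530036O11Rik itself had between 0 and 11 counts in any library. Arhgap9 had 587 to 2064 counts per library, with the highest, 1705 to 2064, at day 3, when Gli1 had 82 to 96. The part of such reads in the counts of the members was not tested.

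Each library had between 36706513 and 40655764 counts. The day 0 libraries were the most variable, with a biological coefficient of variation of 26.4%, against 5.70% to 10.8% within the later days. Replicates 2 and 3 of day 0 stood apart from replicates 1 and 4 in several marker lists, which touches every comparison of these lists with day 0. The mean log2 CPM (counts scaled to the library size after TMM normalization) of 6 dermal fibroblast markers was 11.4 in both replicates 2 and 3, against 10.3 in replicate 1 and 9.68 in replicate 4. The sebaceous gland list was at 5.99 and 5.88 in replicates 2 and 3 against 4.92 and 4.76 in replicates 1 and 4, the proliferation list at 4.17 and 4.13 against 5.28 and 5.07, the epidermal list at 9.17 and 9.27 against 9.75 and 9.87, and the skeletal muscle list at 11.8 in both against 12.5 in both. Replicate 4 of day 5, replicate 4 of day 7 and replicate 3 of day 14 were the farthest from the other libraries of their day among the wound libraries. As a check of the tissue, the mean log2 CPM of 6 epidermal markers was between 8.36 and 9.87 in every library, that of the dermal fibroblast markers between 9.66 and 11.4, and that of 4 skeletal muscle markers between 9.57 and 12.5. The labels do not say whether the 4 libraries of a day came from separate animals, so the P-values measure the spread between these libraries. In such bulk tissue, fewer cells of a type and less RNA per cell cannot be told apart.

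All 7 genes were at their lowest mean level at day 3, and in FPKM the levels then climbed to a maximum at day 12 (Ptch1 and Smo) or day 14 (Shh, Hhip, Gli1, Gli2 and Gli3). Days 12 and 14 differed by the edgeR test for Shh alone among the members. For Smo the edgeR difference, 0.0053, put day 14 above. FPKM is a level corrected for the length of the gene and the depth of the library, here without TMM normalization. Between the lowest and the highest day, the mean FPKM differed 2.38-fold for Smo, 3.07-fold for Gli3, 5.35-fold for Ptch1, 10.5-fold for Gli2, 22.6-fold for Gli1 and 45.3-fold for Hhip. In the edgeR fit, which uses TMM, the same pairs of days differed 2.07-fold for Smo, 2.70-fold for Gli3 and 4.66-fold for Ptch1. They differed 9.26-fold for Gli2, 19.8-fold for Gli1 and 39.6-fold for Hhip. Shh had 9 counts in the 4 day 3 libraries together and 2445 in those of day 14. Relative to the library sizes after TMM normalization, this was 240.0-fold (95% interval 126 to 525, counting error only). All 7 genes varied over the 7 days in edgeR's joint quasi-likelihood test, with adjusted p-values between 2.98e-21 for Gli1 and 4.83e-12 for Gli3 (Benjamini-Hochberg over the genes tested). This test was passed by 89.5% of all genes.

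**Figure D1:**
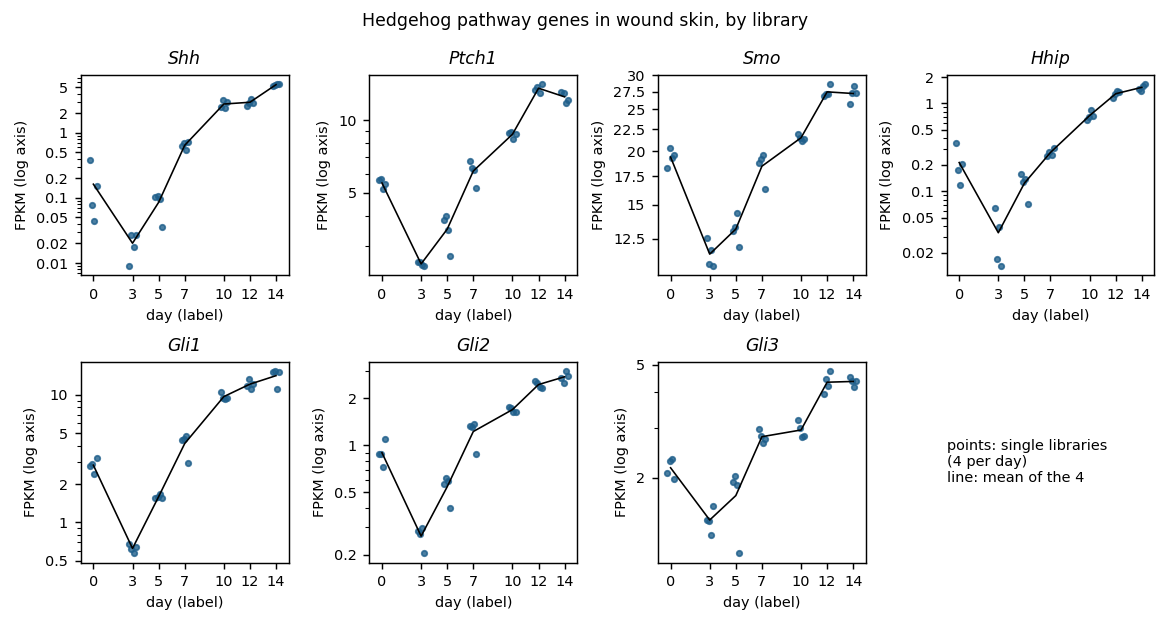
FPKM (log axis) of the 7 Hedgehog pathway genes in each of the 28 libraries, plotted against the labelled day. Points are single libraries, 4 per day, and the line joins the day means. Every line has its minimum at day 3, and Ptch1 and Smo have their maximum at day 12 while the others have it at day 14.

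The quasi-likelihood test of edgeR set each wound day against day 0 in 1 fit of all 28 libraries, and a call was an adjusted p under 0.05. These comparisons share the day 0 libraries, so they are not independent of each other. The members were chosen with earlier results of these data known, so the counts below describe them and do not test the list. At day 3, 7 of 7 members were lower, against 34.8% of all genes (31.8% were higher), with a median log2 fold change of -1.72 beside -0.03 over all genes tested. At day 5, 6 of 7 were lower (30.6% of all genes, with 29.0% higher), with a median of -0.68 beside -0.02. At day 7, 4 of 7 were higher (25.6% of all genes) and none was called lower (24.8%), with a median of 0.38 beside 0.0024. At day 10, 6 of 7 were higher (23.5% of all genes, with 26.9% lower), with a median of 0.86 beside -0.02. At day 12, 7 of 7 were higher (21.7% of all genes, with 25.6% lower), with a median of 1.31 beside -0.04. At day 14, 7 of 7 were higher as well (28.2% of all genes, with 34.5% lower), with a median of 1.49 beside -0.06.

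The 4 libraries of a day did not overlap with those of day 0 in 7 of 7 members at day 3, all below (28.5% of all genes tested lay wholly below). At day 5 this held for Ptch1, Smo, Gli1 and Gli2 (23.2% of all genes). At day 7 only Shh and Gli3 lay wholly above day 0 (19.9% of all genes). On days 10, 12 and 14 all 7 members did, against 19.5%, 18.6% and 23.4% of all genes. Each member without overlap had an exact two-sided permutation p of 0.0286, the smallest that 4 libraries against 4 can give. By the stricter criteria in the methods of the study, a log2 fold change over 1.5 and an unadjusted P under 0.05, Shh, Hhip, Gli1 and Gli2 were lower at day 3 (12.4% of all genes). No member met them at day 5 (8.31% of all genes lower and 5.61% higher), and Shh alone at day 7 (4.66%). Shh, Hhip and Gli1 were higher by these criteria at day 10 (4.33%), day 12 (3.89%) and day 14 (5.15%).

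**Figure D2:**
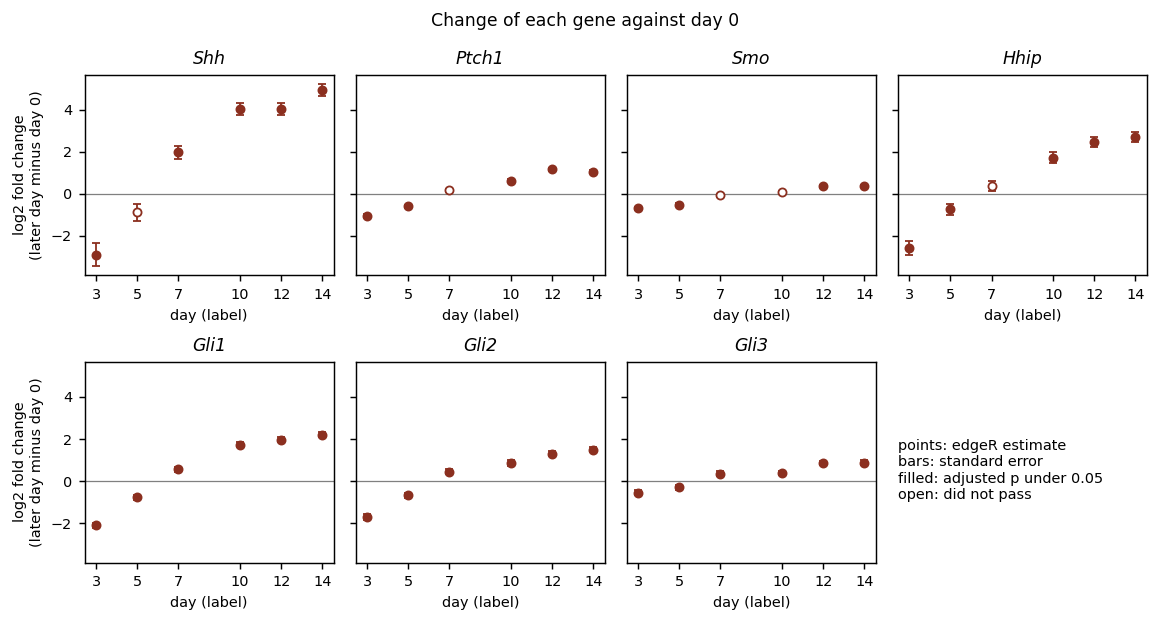
Log2 fold change of each of the 7 genes on days 3 to 14 against day 0 (edgeR, 4 libraries per day). Bars are standard errors and filled points had an adjusted p under 0.05. All 7 points are below 0 at day 3 and all 7 are above 0 on days 12 and 14, from 0.36 for Smo to 4.95 for Shh at day 14.

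Shh, the ligand, was the least abundant member at day 3 and the one with the widest range. The Shh counts in replicates 1 to 4 were 42, 9, 5 and 16 at day 0, and the counts of the day 3 libraries were 1, 3, 2 and 3. The day 5 libraries were at 12, 12, 11 and 4 and those of day 7 at 70, 80, 63 and 81. The day 10 libraries were at 280, 357, 268 and 340, those of day 12 at 299, 338, 390 and 333 and those of day 14 at 592, 598, 645 and 610. Replicate 1 of day 0 held more Shh than any other library of days 0 to 5. Every library from day 7 on thus held more Shh counts than any library of days 0 to 5, and the libraries of days 10 and 12 overlapped while those of day 14 were all higher.

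In FPKM, Shh was at 0.162 ± 0.149 at day 0, 0.0201 ± 0.00856 at day 3 and 0.0852 ± 0.0334 at day 5 (mean ± SD, n = 4 here and below). It was at 0.642 ± 0.0763 at day 7, 2.76 ± 0.378 at day 10, 2.94 ± 0.312 at day 12 and 5.48 ± 0.163 at day 14. The SD at day 0 was nearly as large as the mean. At day 3 no library had more than 3 Shh counts, and the summed counts were 9, against 72 at day 0. Relative to the library sizes after TMM normalization, this was a ratio of 0.130 (95% interval 0.0569 to 0.260, counting error only). The edgeR adjusted p of this fall was 4.34e-05, and with limma on log2(FPKM + 1), a scale on which such low values differ little, the call was lost (adjusted p = 0.0528).

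Against day 0, the log2 fold change of Shh was -0.88 (standard error 0.408) at day 5, which did not pass (adjusted p = 0.0665, edgeR with Benjamini-Hochberg adjustment). Shh then rose by 1.98 (standard error 0.307) at day 7, 4.03 (standard error 0.290) at day 10, 4.03 (standard error 0.290) at day 12 and 4.95 (standard error 0.291) at day 14, with adjusted p-values of 4.84e-06 or less (edgeR). The size of these changes rested on replicate 1 of day 0. Without it the log2 fold changes were -2.0 at day 3, 2.82 at day 7, 4.87 at day 10, 4.89 at day 12 and 5.86 at day 14, and all of these calls held. At day 5 it was -0.022, so the lower Shh level at day 5 rested on that library. The day 5 difference passed with DESeq2 (adjusted p = 0.0209), with upper quartile normalization (0.0478, edgeR) and without replicate 2 or replicate 3 of day 0 (0.0195 and 0.00618, edgeR). That library also had the highest level of hair matrix and shaft markers of the 4 day 0 libraries, at a mean log2 CPM of 4.84 against 2.97 to 3.13 in the others. The part of this in the Shh values was not tested.

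Ptch1 is the receptor that holds Smoothened inactive and is itself a target of the pathway. The FPKM of Ptch1 in replicates 1 to 4 was 5.66, 5.69, 5.17 and 5.43 at day 0, and that of the day 3 libraries was 2.59, 2.57, 2.50 and 2.48. At day 5 the libraries were at 3.87, 4.01, 3.51 and 2.74 and those of day 7 at 6.80, 6.36, 6.21 and 5.24. At day 10 they were at 8.86, 8.94, 8.38 and 8.76, those of day 12 at 13.3, 13.8, 13.0 and 14.2 and those of day 14 at 13.1, 13.0, 11.7 and 12.1. The day 3 libraries were all below those of every other day, the libraries of days 0 and 7 overlapped, and those of days 10 to 14 were all above day 7.

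Ptch1 fell by 1.06 on the log2 scale at day 3 (standard error 0.081, adjusted p = 5.29e-12, edgeR) and by 0.60 at day 5 (adjusted p = 3.05e-07, edgeR). The difference at day 7 was 0.16 (standard error 0.079) and did not pass (adjusted p = 0.0892, edgeR). It passed without replicate 4 of day 7, at 0.23 with an adjusted p of 0.0118 (edgeR). Ptch1 was higher by 0.62 (standard error 0.079) at day 10, 1.16 (standard error 0.079) at day 12 and 1.06 (standard error 0.079) at day 14, with adjusted p-values of 2.29e-07 or less (edgeR).

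Smo, the membrane protein that passes the signal on, was the most abundant member per length on every day and had the smallest ratio between its highest and lowest day. In replicates 1 to 4, the FPKM of Smo was 18.3, 20.3, 19.3 and 19.6 at day 0, and that of the day 3 libraries was 12.6, 10.9, 11.8 and 10.8. The day 5 libraries were at 13.0, 13.4, 14.3 and 12.0 and those of day 7 at 18.7, 19.1, 19.6 and 16.3. The day 10 libraries were at 21.9, 21.5, 21.1 and 21.4, those of day 12 at 26.9, 27.1, 27.1 and 28.7 and those of day 14 at 25.8, 27.4, 28.4 and 27.3. The libraries of days 3 and 5 were all below day 0, those of day 7 overlapped with day 0, and those of days 12 and 14 were all above every earlier library.

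Smo fell by 0.69 on the log2 scale at day 3 (adjusted p = 7.80e-11, edgeR) and by 0.52 at day 5 (adjusted p = 2.91e-08, edgeR). At day 10 the log2 fold change was 0.09 (standard error 0.060) with an adjusted p of 0.198 (edgeR), although its 4 libraries lay just above those of day 0. Without composition normalization it was 0.15 and passed, with an adjusted p of 0.0372 (edgeR). It also passed with limma on FPKM, which has no such normalization either. The adjusted p was 0.0408 on log2(FPKM + 1), 0.0295 there among genes with a mean FPKM of at least 1, and 0.0443 on log2(FPKM + 0.1). The rise was 0.36 (standard error 0.060) at day 12 and 0.36 (standard error 0.060) at day 14 (adjusted p = 1.76e-05 and 6.91e-06, edgeR).

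Hhip, the membrane-bound inhibitor that takes up ligand, moved more than the receptor genes. The counts of Hhip in replicates 1 to 4 were 125, 65, 42 and 69 at day 0, and the counts of the day 3 libraries were 23, 6, 14 and 5. At day 5 the libraries were at 58, 46, 50 and 26 and those of day 7 at 91, 104, 95 and 114. At day 10 they were at 230, 251, 305 and 259, those of day 12 at 420, 477, 507 and 497 and those of day 14 at 521, 491, 566 and 589. As for Shh, replicate 1 was the highest of the day 0 libraries, the day 3 libraries were all below day 0, and those of days 10 to 14 were all above it.

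The mean FPKM of Hhip was 0.212 ± 0.0993 at day 0, 0.0337 ± 0.0235 at day 3 and 1.52 ± 0.126 at day 14. Hhip fell by 2.59 on the log2 scale at day 3 (standard error 0.327, adjusted p = 8.33e-08, edgeR). At day 5 the log2 fold change was -0.74 (standard error 0.269) with an adjusted p of 0.0199 (edgeR), and without replicate 1 of day 0 it was -0.37 and did not pass (adjusted p = 0.206, edgeR). It was also lost with voom (adjusted p = 0.176), in fits of only the 8 libraries of both days (0.105 with edgeR and 0.106 with DESeq2) and without replicate 4 of day 5 (adjusted p = 0.0827, edgeR). At day 7 it was 0.38 (standard error 0.250) and not called (adjusted p = 0.216, edgeR), but passed without replicate 1 of day 0, at 0.74 (adjusted p = 0.00926, edgeR). Hhip rose by 1.72 (standard error 0.242) at day 10, 2.46 (standard error 0.242) at day 12 and 2.72 (standard error 0.243) at day 14, with adjusted p-values of 1.01e-06 or less (edgeR).

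Gli1, an activator that is made in response to the signal, fell and rose most among the 3 Gli genes. In replicates 1 to 4, the counts of Gli1 were 396, 424, 345 and 433 at day 0, and the counts of the day 3 libraries were 96, 88, 82 and 92. The day 5 libraries were at 228, 231, 244 and 226 and those of day 7 at 640, 659, 710 and 424. The day 10 libraries were at 1497, 1361, 1355 and 1363, those of day 12 at 1730, 1979, 1662 and 1796 and those of day 14 at 2147, 2183, 1610 and 2107. The day 3 and day 5 libraries were all below day 0, and the day 10, 12 and 14 libraries were all above day 7. Replicate 4 of day 7 and replicate 3 of day 14 were well below the others of their day.

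In FPKM, Gli1 was at 2.81 ± 0.338 at day 0, 0.626 ± 0.0428 at day 3, 9.69 ± 0.582 at day 10 and 14.1 ± 2.04 at day 14. The log2 fold change against day 0 was -2.11 (standard error 0.134) at day 3 and -0.78 (standard error 0.121) at day 5 (adjusted p = 9.11e-14 and 3.19e-06, edgeR). It was 0.56 (standard error 0.115) at day 7, 1.73 (standard error 0.115) at day 10, 1.96 (standard error 0.115) at day 12 and 2.20 (standard error 0.116) at day 14, with adjusted p-values of 1.85e-04 or less (edgeR).

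Gli2 acts mainly as the first activator of the targets. The FPKM of Gli2 in replicates 1 to 4 was 0.883, 0.876, 0.729 and 1.11 at day 0, and that of the day 3 libraries was 0.281, 0.270, 0.295 and 0.203. At day 5 the libraries were at 0.566, 0.623, 0.588 and 0.398 and those of day 7 at 1.33, 1.31, 1.38 and 0.888. At day 10 they were at 1.77, 1.74, 1.63 and 1.64, those of day 12 at 2.57, 2.53, 2.38 and 2.34 and those of day 14 at 2.71, 2.53, 3.00 and 2.78. The libraries of days 3 and 5 were all below day 0 and those of days 10 to 14 all above it, while replicate 4 of day 7 lay within the day 0 range. The log2 fold change was -1.72 (standard error 0.147) at day 3, -0.68 (standard error 0.138) at day 5 and 0.45 (standard error 0.133) at day 7 (adjusted p = 4.59e-11, 1.10e-04 and 0.00618, edgeR). The day 7 call was lost when only the 8 libraries of the 2 days were fitted (adjusted p = 0.0734, edgeR). On days 10, 12 and 14 Gli2 was higher by 0.86, 1.31 and 1.49.

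Gli3, the main source of Gli repressor, had the smallest ratio between its highest and lowest day among the Gli genes. In replicates 1 to 4, the FPKM of Gli3 was 2.08, 2.29, 2.33 and 1.98 at day 0, and that of the day 3 libraries was 1.42, 1.41, 1.26 and 1.60. The day 5 libraries were at 1.93, 2.03, 1.88 and 1.08 and those of day 7 at 2.96, 2.81, 2.66 and 2.73. The day 10 libraries were at 3.2, 3.00, 2.78 and 2.80, those of day 12 at 3.95, 4.44, 4.19 and 4.75 and those of day 14 at 4.51, 4.37, 4.17 and 4.39. The day 3 libraries were all below and those from day 7 on all above day 0, while replicate 2 of day 5 lay within the day 0 range. The log2 fold change was -0.55 (standard error 0.116) at day 3 (adjusted p = 1.43e-04, edgeR) and -0.29 (standard error 0.115) at day 5 (adjusted p = 0.0339, edgeR). The day 5 call rested on replicate 4 of that day, without which it was -0.12 (adjusted p = 0.180, edgeR), and it was also lost without replicate 2 or replicate 3 of day 0 (adjusted p = 0.0789 and 0.0856, edgeR). With voom the adjusted p was 0.0987, and with only the 8 libraries of both days it was 0.177 with edgeR and 0.252 with DESeq2. Gli3 was higher by 0.36 at day 7, 0.39 at day 10, 0.85 at day 12 and 0.88 at day 14, with adjusted p-values of 0.00969 or less (edgeR).

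The proportions of the 3 Gli genes differed between days. Of the summed FPKM of the 3 Gli genes, Gli1 made up 47.7 ± 2.95% at day 0, 27.1 ± 0.833% at day 3 and 67.6 ± 0.729% at day 10 (mean ± SD, n = 4). Gli3 made up 37.1 ± 4.68% at day 0, 61.4 ± 2.76% at day 3 and 20.5 ± 0.464% at day 10. At day 3 the Gli1 share was 26.4 to 28.3% and the Gli3 share 59.1 to 65.3% in single libraries, so Gli3 was ahead in all 4. At day 10 the ranges were 66.5 to 68.0% for Gli1 and 20.2 to 21.2% for Gli3, and Gli1 was ahead in all 4. The Gli2 share was lowest on average at day 3, at 11.5 ± 2.31%, and highest at day 0, at 15.2 ± 1.77%, and these libraries overlapped. The shares depend on the length of each gene. The length behind the Gli2 FPKM was 13870 bases, while the annotation holds 6637 exon bases. With the annotated exon bases of the 3 genes, an alternative added after seeing the data, the Gli2 share was 28.2 ± 2.87% at day 0, 21.5 ± 3.91% at day 3 and 23.2 ± 0.612% at day 10. Gli1 was then at 38.2 ± 1.87%, 22.0 ± 0.660% and 57.2 ± 0.843% on these days, and Gli3 at 33.7 ± 4.68%, 56.5 ± 3.78% and 19.7 ± 0.396%. Gli3 was still the largest share in all 4 day 3 libraries and Gli1 in all 4 of day 10, but Gli2 was then above Gli3 at day 10. The ratio of Ptch1 to Smo FPKM was 0.284 ± 0.0180 at day 0, 0.221 ± 0.0141 at day 3 and 0.494 ± 0.0118 at day 12. These shares and ratios are descriptions per library, without a test.

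**Figure D3:**
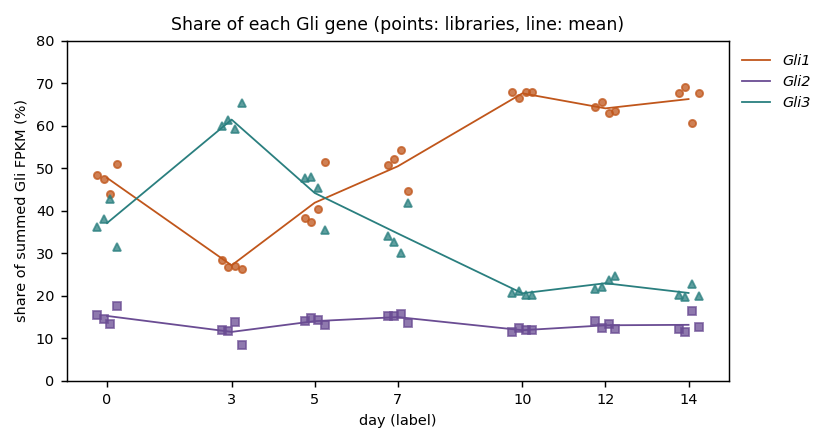
Share (%) of Gli1, Gli2 and Gli3 in the summed FPKM of the 3 genes, by library and labelled day. Points are libraries and lines join the means. Gli3 is the largest share in the 4 day 3 libraries and Gli1 the largest in the libraries of days 10, 12 and 14.

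The steps between neighbouring time points were then compared in the same fit. Each of these comparisons shares libraries with the next. From day 3 to day 5, 6 of 7 members rose (12.9% of all genes), and Gli3 did not pass, at 0.27 (adjusted p = 0.0974, edgeR). Without replicate 4 of day 5 it passed, at 0.43 (adjusted p = 1.35e-04, edgeR). The day 5 rise of Smo, 0.18 (standard error 0.061), was lost in 6 of the 8 fits that left out 1 library of days 3 and 5 (replicates 2, 3 and 4 of day 3, and 1, 2 and 3 of day 5), with the smallest value, 0.10, without replicate 3 of day 5. The call of Shh in this step was lost without replicate 1 of day 3 (adjusted p = 0.0583, edgeR) and with limma on log2(FPKM + 1) (0.564, or 0.410 among genes with a mean FPKM of at least 1) or log2(FPKM + 0.1) (0.0850). That of Hhip was lost with limma on log2(FPKM + 1) (adjusted p = 0.111). From day 5 to day 7, 7 of 7 rose (13.9% of all genes), with Shh at 2.85 (standard error 0.340) and Gli1 at 1.34 (standard error 0.120). From day 7 to day 10, 6 of 7 rose (14.3% of all genes), with Shh at 2.05 (standard error 0.244), Hhip at 1.35 (standard error 0.235) and Gli1 at 1.17 (standard error 0.112). In that step Gli3 was at 0.03 (standard error 0.112) and did not pass (adjusted p = 0.886, edgeR). The calls of Gli2 and Smo in it were lost without replicate 4 of day 7 (adjusted p = 0.0748 and 0.125, edgeR), and that of Smo also without replicate 1 or 3 of day 10 (adjusted p = 0.0533 and 0.0692, edgeR).

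From day 10 to day 12, 5 of 7 members rose (18.7% of all genes): Ptch1 at 0.55 (standard error 0.078), Smo at 0.26 (standard error 0.060), Hhip at 0.73 (standard error 0.221), Gli2 at 0.44 (standard error 0.129) and Gli3 at 0.47 (standard error 0.111). Shh and Gli1 did not pass in this step. The Shh difference was 0.00014 (standard error 0.223), with a sign that changed in some other settings. Gli1 was at 0.23 (adjusted p = 0.0892, edgeR). It passed without composition normalization (adjusted p = 0.0201, edgeR), with voom (0.0108), with limma on log2(FPKM + 1) (0.0303) and without the 3 libraries farthest from their day (0.00646). From day 12 to day 14, Shh alone rose (19.9% of all genes), at 0.92 (standard error 0.221) with an adjusted p of 0.00134 (edgeR). Gli1 was at 0.23 (adjusted p = 0.0780, edgeR) and passed without replicate 3 of day 14, at 0.32 (adjusted p = 0.0195, edgeR). The number of members called higher in this last step ranged from 0 to 3 over the other settings.

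Ordered by level, the days thus followed the same sequence at the low end for all 7 genes, day 3 below day 5. Neighbours in the order that did not differ by the test were days 5 and 0, and days 10 and 12, for Shh. For Ptch1 they were days 0 and 7, and days 12 and 14. For Smo they were days 7 and 0, days 0 and 10, and days 12 and 14. For Hhip they were days 0 and 7, and days 12 and 14. For Gli1 they were days 10 and 12, and days 12 and 14. For Gli2 they were days 12 and 14, and for Gli3 days 3 and 5, days 7 and 10, and days 12 and 14.

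Markers of the hair matrix and shaft and of the dermal papilla changed over the same days, in part in other steps than the members. The mean log2 CPM of 9 hair matrix and shaft markers was 2.97 to 4.84 in the day 0 libraries, -0.93 to -0.40 at day 3 and -0.40 to -0.04 at day 5, when 9 of 9 were lower. It was 3.75 to 4.21 at day 7 and 3.44 to 3.64 at day 10, when 4 were higher and 3 lower than at day 0. It was 6.59 to 6.92 at day 12 and 7.27 to 7.64 at day 14, with 9 of 9 higher. None of the 9 was at 0 in all libraries of a day. Their part in the changes of the members was not tested.

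The markers of this list did not all move together. From day 7 to day 10, when Shh rose by 2.05, the hair shaft keratin Krt31 fell by 3.95, the hair shaft enzyme Padi3 by 2.53 and the transcription factor Foxn1 by 1.37 on the log2 scale (adjusted p = 1.30e-07, 2.93e-06 and 1.37e-04, edgeR). In the same step Lef1, a Wnt effector, rose by 1.29, and the transcription factors Msx2 and Hoxc13 rose by 0.68 and 0.52 (adjusted p = 1.43e-05, 0.0448 and 0.0339, edgeR), so 3 markers fell, 3 rose and the other 3 did not pass. From day 10 to day 12, when the Shh difference was 0.00014, all 9 markers of the list rose, from 1.60 for Lef1 to 6.93 for Krt31. The differences between these changes were not tested.

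Of 8 dermal papilla markers, 6 were lower and Crabp1 was higher on days 3 and 5 (1.19 and 1.24), and 5 were higher with 1 lower on days 10 and 12. Their mean log2 CPM was 0.79 to 1.29 at day 0, -0.72 to -0.33 at day 3 and 2.52 to 2.68 at day 10. Their summed FPKM, to which Crabp1 adds, was 31.0 to 48.4 at day 0 and 64.5 to 86.3 at day 3. The mean log2 CPM was lower again at day 12 (1.96 to 2.09) and day 14 (1.78 to 2.13), the days on which the members had their highest levels. From day 7 to day 10 the dermal papilla protease Corin rose by 2.28 (standard error 0.289), the transcription factor Sox2 by 2.15 (standard error 0.469) and the transcription factor Alx4 by 1.75 (standard error 0.151), with adjusted p-values of 7.41e-04 or less (edgeR). From day 10 to day 12, when 5 of the 7 members rose, Crabp1 fell by 2.59, the Notch target Hey2 by 0.77, the Wnt agonist Rspo3 by 0.55 and Alx4 by 0.40 on the log2 scale, with adjusted p-values of 0.0264 or less (edgeR). At day 14, Crabp1 was lower than at day 0 by 0.93 and Prom1 by 1.74 on the log2 scale, while Corin was higher by 3.92 and Alx4 by 2.66.

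**Figure D4:**
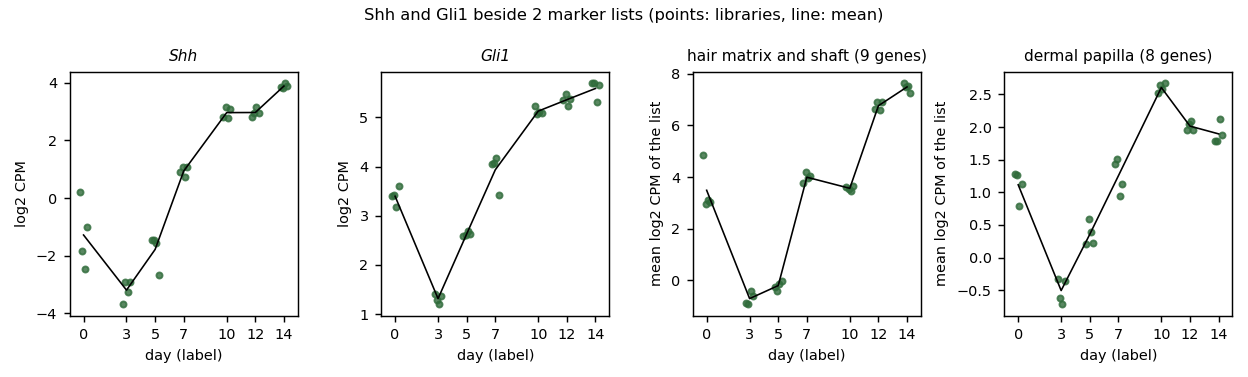
Log2 CPM of Shh and Gli1, and mean log2 CPM of the hair matrix and shaft markers and the dermal papilla markers, by library and labelled day. Points are libraries and lines join the means. Shh and Gli1 climb between days 7 and 10 while the mean of the hair matrix and shaft list does not. In that step Lef1, Msx2 and Hoxc13 of the list rose, and Krt31, Padi3 and Foxn1 fell. The list mean climbs between days 10 and 12 while Shh stays level.

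Other cell types changed over the same days. At day 3, 4 of 4 neutrophil markers and 4 of 4 leukocyte markers were higher than at day 0, and 6 of 6 markers of hair follicle stem cells and outer root sheath, 5 of 5 of sebaceous gland and 5 of 6 of dermal fibroblasts were lower. At day 14, 6 of 6 dermal fibroblast markers and 4 of 4 leukocyte markers were lower. Replicate 4 of day 0 was inside the day 14 range of the fibroblast list, 9.66 to 9.81. All 4 proliferation markers were higher than at day 0 on each wound day, day 3 included, when the 7 members were lower. The 4 skeletal muscle markers were lower on every wound day, with a mean log2 CPM of 11.8 to 12.5 at day 0 and 9.57 to 10.9 later. Of 4 myofibroblast markers, 2 were higher and 1 lower at day 14, and of 4 endothelial markers 3 were higher at day 3. Of 4 adipocyte markers, 2 were lower at day 3 and 2 higher at day 14. Of 6 epidermal markers, 5 were lower at day 3 and 3 at day 14, when 1 was higher. The part of these cell types in the levels of the members was not tested.

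The wider pathway was read from a list of 38 other genes, of which 37 were tested. At day 3, 26 were lower and 7 higher than at day 0 (34.8% and 31.8% of all genes tested). The median log2 fold change was -0.50, beside -0.03 over all genes tested. At day 14, 9 were lower and 16 higher (34.5% and 28.2% of all genes), with a median of 0.15 beside -0.06. The counts in between were 22 lower and 7 higher at day 5 (30.6% and 29.0% of all genes) and 11 and 11 at day 7. At day 10 they were 7 and 13 (26.9% and 23.5%), and at day 12 they were 7 and 17 (25.6% and 21.7%). Of all genes tested, 24.8% were lower and 25.6% higher at day 7, so the day 7 counts were near the share of all genes.

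Dhh, the ligand known from Schwann cells, was lower on every wound day, by 0.87 at day 3 and 1.64 at day 14 on the log2 scale (standard error 0.159 and 0.164, adjusted p = 2.57e-05 and 1.53e-09, edgeR). Its FPKM was 1.48 ± 0.347 at day 0 and 0.517 ± 0.0443 at day 14. All 5 Schwann cell and nerve sheath markers were lower on each wound day as well, with a mean log2 CPM of 6.59 to 7.11 at day 0 and 5.40 to 5.65 at day 14, and their part in the fall of Dhh was not tested. Ihh, the third ligand gene, had between 0 and 9 counts in any library and was not tested. Its counts over the 4 libraries of a day were 1 at day 0, 2 at day 3, 10 at day 12 and 15 at day 14.

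Of the 5 genes for processing and release of the ligand, 4 were lower at day 3 (34.8% of all genes). At day 14, 3 were higher and 1 lower (28.2% and 34.5% of all genes). The secreted proteins Scube1, Scube2 and Scube3 belong to a family that helps to release Hedgehog ligands. Scube3 was at 0.593 ± 0.159 FPKM at day 0, 0.164 ± 0.00850 at day 3 and 3.77 ± 0.202 at day 14, and its log2 fold change was -1.79 (standard error 0.177) at day 3 and 2.54 (standard error 0.153) at day 14. Scube1 changed by -2.25 (standard error 0.273) and 2.39 (standard error 0.218) on these days. Scube2 was lower by 1.83 at day 3 and did not pass at day 14, at 0.38 (adjusted p = 0.132, edgeR).

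The co-receptors Cdon, Boc and Gas1 bind the ligand together with Patched, and their genes are known to be repressed by the signal. All 3 were lower at day 3 and at day 14. Boc was lower on every wound day, by 1.43 at day 3 and 0.65 at day 14. Cdon was lower by 0.50 at day 3 and 1.13 at day 14 and did not pass on days 5 to 12. Gas1 was lower by 0.36, 0.24, 0.25 and 0.86 on days 3, 5, 12 and 14 and higher by 0.25 at day 10, with adjusted p-values of 0.00315 or less (edgeR). Dermal fibroblast markers were lower at day 14 too, 6 of 6 (with the day 0 libraries split as given above), and their part in the values of Cdon, Boc and Gas1 was not tested.

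Of the 12 genes that act between Smoothened and the Gli proteins, 5 were higher and 6 lower at day 3 (31.8% and 34.8% of all genes). At day 14, 5 were higher and 4 lower (28.2% and 34.5% of all genes), so genes of this class went in both directions on both days. The ciliary receptor Gpr161, which restrains the pathway, was lower by 1.07 at day 3, and Evc, a ciliary partner of Smoothened, by 1.45. Kif7, a kinesin that moves with the Gli proteins in the cilium, was lower by 0.56 at day 3 and higher by 1.30 (standard error 0.136) at day 14. Of the 7 cilium genes, 5 were lower and none was called higher at day 3, and 2 were higher at day 14, about the 28.2% of all genes. Ift88, a subunit of the ciliary transport complex, was lower by 0.48 at day 3 and at 0.06 (standard error 0.081) at day 14 (adjusted p = 0.504, edgeR). Ift80, another subunit, was lower by 0.47 at day 3 and higher by 0.58 at day 14, and the transport adaptor Tulp3 was at -0.01 at day 3 and higher by 0.56 at day 14.

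Of 8 genes reported to respond to Hedgehog signalling, 6 were lower and 2 higher at day 3 (34.8% and 31.8% of all genes). At day 14, 5 were higher and none was called lower (28.2% and 34.5% of all genes). Foxe1, a transcription factor of the hair follicle, went from 0.539 ± 0.269 FPKM at day 0 to 0.0210 ± 0.0248 at day 3 and 17.3 ± 1.85 at day 14. Mycn, a growth-promoting transcription factor, went from 1.04 ± 0.406 to 0.0888 ± 0.0395 and 17.4 ± 1.57 FPKM on the same days. Their log2 fold changes were -4.53 (standard error 0.455) and 4.88 (standard error 0.226) for Foxe1, which had only 0 to 4 counts in the day 3 libraries, and -3.47 (standard error 0.287) and 3.94 (standard error 0.190) for Mycn. The cell cycle gene Ccnd1 fell by 0.82 at day 3 and rose by 0.90 at day 14. All of these calls had adjusted p-values of 1.16e-09 or less (edgeR).

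**Figure D5:**
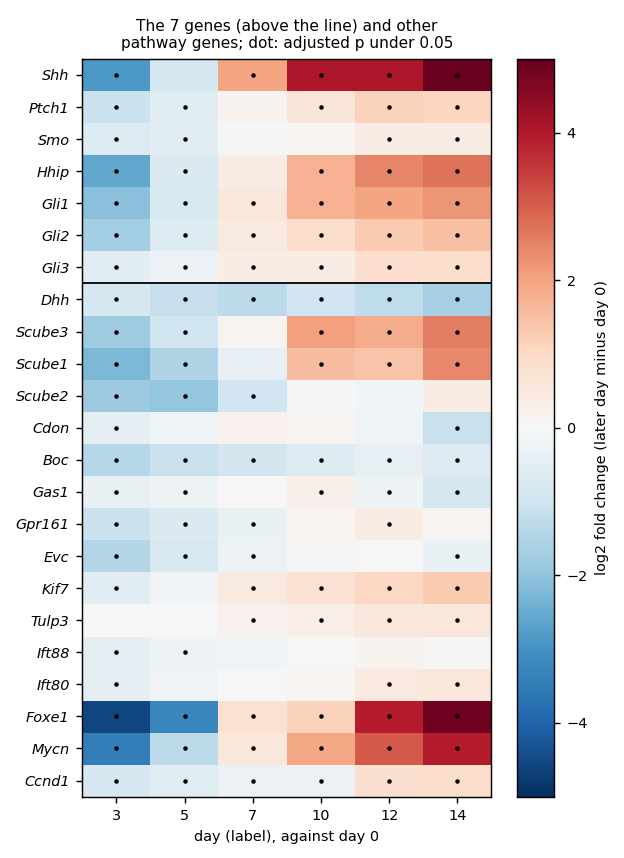
Log2 fold change against day 0 (colour, edgeR) of the 7 Hedgehog pathway genes, above the line, and of the other pathway genes named here, on days 3 to 14. Dots mark an adjusted p under 0.05. Dhh and Boc are lower on every day, while Scube1, Scube3, Foxe1 and Mycn go from lower at day 3 to higher at day 14.

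Over the 28 libraries, the log2 CPM of the 21 pairs of members had Pearson correlations between 0.875 and 0.981 (median 0.948). The libraries share the days and the normalization. For deviations from the day means, which leave the time course out, the correlations were between -0.148 and 0.719 (median 0.326). Among 12948 other genes with a mean FPKM of at least 1, the most alike in pattern over the 28 libraries was Corin for Shh (r = 0.978), followed by Scube3 (0.973) and Cdk18 (0.971). For Gli1 it was Alx4 (0.988), then Corin (0.981) and Ephb3 (0.977). For Hhip they were Mycn (0.978), Dct (0.971) and Corin (0.969). For Ptch1 they were Robo1 (0.983), Mycn (0.974) and Zfp266 (0.973). For Smo they were Robo1 (0.980), Lhx2 (0.974) and Epha4 (0.973). For Gli2 they were Lgr5 (0.980), Robo1 (0.978) and Ephb3 (0.976), and for Gli3 Serinc5 (0.965), Neo1 (0.963) and Robo1 (0.961). These correlations are descriptions of 28 libraries that share the time course.

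The promoters of the members were read for what they share. RefSeq windows of 300 bases around the transcription start (GRCm38.p6, 250 bases before and 50 after) were matched for 5 of the 7 members: Ptch1, Smo, Hhip, Gli2 and Gli3. The windows were rich in C and G, with a GC content between 67.3% for Gli2 and 76.3% for Ptch1, beside a median of 52.7% over 32851 windows. The Gli binding motif GACCACCCA was searched on both strands. It was in 0 of the 5 windows, beside 83 of the 32851 windows (0.253%), which says only that these letters are not in these windows. The number of CG pairs in a window ranged from 17 for Smo to 47 for Ptch1, beside a median of 7. The 250 bases before the start are shown for Smo and Gli3, whose start in the table was the first base of the annotated gene, both on the plus strand and with each CG pair in capitals. They lie at chr6:29735247-29735496 and chr13:15463473-15463722.
Smo: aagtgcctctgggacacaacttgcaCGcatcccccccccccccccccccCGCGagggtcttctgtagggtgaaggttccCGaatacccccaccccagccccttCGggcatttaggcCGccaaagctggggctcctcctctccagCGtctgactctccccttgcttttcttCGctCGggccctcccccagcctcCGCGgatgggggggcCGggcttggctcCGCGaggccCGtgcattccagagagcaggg
Gli3: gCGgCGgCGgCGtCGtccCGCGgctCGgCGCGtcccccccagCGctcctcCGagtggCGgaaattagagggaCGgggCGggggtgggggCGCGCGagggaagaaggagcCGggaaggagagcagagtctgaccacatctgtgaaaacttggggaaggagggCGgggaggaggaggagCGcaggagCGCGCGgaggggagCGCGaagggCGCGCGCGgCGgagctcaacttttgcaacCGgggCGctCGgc
The Smo sequence held 15 CG pairs and that of Gli3 held 34.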

How the data were processed

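Total RNA from skin was sequenced in 28 libraries, 4 per labelled day, day 0 included. The authors deposited raw counts per gene symbol, without normalization. The authors also deposited FPKM values, and each of them equals the count divided by the library total and a constant length of the gene, so they follow from the same counts. The submitters' processing notes name fastp, R 3.2.0 and mm10. The aligner, the counting tool, the annotation and the strandedness are not given in the sources used here. Reads in overlapping genes on opposite strands can therefore be shared. All columns of both tables were used, and groups and replicate numbers came from the sample titles.

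The counts were fitted in R 4.3.3 with edgeR 4.0.16 (TMM, filterByExpr on the 7 day groups, glmQLFit and glmQLFTest, two-sided, without covariates, 21 residual degrees of freedom). Benjamini-Hochberg adjustment ran across 18107 tested genes. A standard error is the size of the log2 fold change divided by the square root of F. Log2 CPM used a prior count of 2. Exact two-sided permutation tests compared 4 libraries with 4. Intervals for summed Shh counts were exact binomial 95% intervals (Clopper-Pearson, scipy 1.17.1) and cover counting error only. A count of 0 allows a level of up to 3 counts. The scripts were tested on simulated counts.

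The genes named were the 7 members. Of the other pathway genes they were the ligands, the co-receptors, and in each other class the 3 genes with the highest joint F. A gene that the rule would name is not reported here. For each member the 3 genes with the highest correlation were named as well. Marker genes were named with their list, and those singled out from a list were chosen after their values were seen. The members, the lists and the tests were chosen with earlier results of these data known. The alternatives were other normalizations (DESeq2's size factors, upper quartile or none), testing all genes with a count or those with 10 counts or more in each library, DESeq2 1.42.0, limma 3.58.1 (voom, or log2(FPKM + 1) and log2(FPKM + 0.1), and genes with a mean FPKM of 1 or more), fits of 8 libraries, the replicate number as a block, and each library left out. Leaving out 3 libraries together and Gli shares by annotated exon length were chosen after seeing the data.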

Additional observations from a re-analysis of the deposited data

Results flagged for a closer look

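In 4 of the 49 groups of 4 libraries (7 genes on 7 days), 1 library stood apart from the other 3 by Dixon's test at the 95% level. Chance gives about 1 in 20, here 2.45 groups. Shh in replicate 4 of day 5 was at a log2 CPM of -2.65, beside -1.56 to -1.45 in the others, on 4 counts against 11 or 12. Gli3 in the same library was at 3.30, beside 4.07 to 4.18. Gli2 in replicate 4 of day 7 was at 3.64, beside 4.23 to 4.30. Gli1 in replicate 3 of day 14 was at 5.31, beside 5.66 to 5.70. In each case the library that stood apart was the lowest. These 3 libraries also had the largest median distance from the others of their day among the wound libraries, at a median absolute log2 difference of 0.211, 0.155 and 0.160 over all genes.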

How the results depend on the processing

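Of 2616 values under an alternative, 2532 kept their direction and their side of the threshold, or for counts stayed within 1.5 times. The replicate numbers did not pair the libraries, since libraries with the same number on different days had correlations of their deviations between -0.0735 and 0.0760. With the replicate number as a block, all 114 values kept their direction and side, for example 4.96 for Shh on day 14. Calls by a log2 fold change over 1.5 and an unadjusted P under 0.05, in place of an adjusted p, were fewer, with 4 members lower on day 3, 0 lower on day 5, 1 higher on day 7, and 3 higher on each of days 10, 12 and 14. The number called higher from day 12 to day 14, 1 in the fit reported, was 2 with DESeq2's size factors, upper quartile normalization, DESeq2, limma on log2(FPKM + 1) or without the 3 libraries, 3 with voom, 0 with at least 10 counts in every library, which leaves Shh untested, and 1 to 2 with each library left out. It was 2 without replicate 3 of day 14.

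Signs changed only for differences near 0. Shh from day 10 to day 12 was at -0.034 with upper quartile normalization, -0.0054 without a filter, and -0.031, -0.053 and -0.067 without replicate 1 or 3 of day 10 or replicate 3 of day 12, and with each library left out it reached at most 0.0807. Smo from day 12 to day 14 was at -0.0128 without composition normalization, -0.0127 with limma on log2(FPKM + 1), also among genes with a mean of 1 or more, -0.0131 with log2(FPKM + 0.1) and -0.035 to 0.0352 with each library left out, the lowest without replicate 3 of day 14. Gli3 from day 7 to day 10 was between -0.0064, without replicate 1 of day 10, and 0.0558 with each library left out. The cause was not tested. Upper quartile normalization shifted the median of all genes to -0.124 on day 3, and no normalization shifted it to 0.107 on day 12. The fit pools the spread over days, and day 0 varied most.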
